A study of Mus musculus with 22 samples.

Results

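Ligands, a receptor and inhibitors of the activin and TGF-beta pathway were followed in primary mouse embryonic fibroblasts (MEFs) with and without Lsh. The set holds 9 genes, found by their symbols: 5 ligand genes (Inhba, Inhbb, Tgfb1, Tgfb2 and Tgfb3), 1 receptor gene (Tgfbr2) and 3 inhibitor genes (Fst, Fstl3 and Smad7). They are 9 of the 16271 genes measured in all 4 RNA libraries, and all 9 were among the 11149 genes high enough to be tested. Lsh, which Hells encodes, belongs to the SNF2-type ATPases that remodel chromatin, and cells without it lose much of their DNA methylation. The libraries came from KO MEFs (Lsh-/-) and WT MEFs (Lsh+/+), both C57BL/6, derived from the body of E13.5 embryos and used at passage 3 to 4. Each genotype had 2 biological replicates, called KO1, KO2, WT1 and WT2. The cells grew in medium with serum, and the labels list no added ligand or inhibitor. They do not say which part of the gene was deleted, how many embryos went into a culture, or whether a number marks a shared litter or day.

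Activins are dimers of inhibin beta subunits, and activin A consists of the beta A subunit that Inhba encodes. Activins and TGF-betas bind receptor pairs with serine/threonine kinase activity, which phosphorylate SMAD proteins that enter the nucleus and alter transcription. TGF-beta is secreted in a latent form held in the matrix, and in fibroblasts it is known for inducing matrix and contractile genes. The pathway limits itself: follistatin (Fst) and Fstl3 bind activins outside the cell, and Smad7, itself a target of the pathway, blocks the receptors.

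The libraries held an estimated 122.3 to 176.4 M (mega) mapped reads. Libraries that share a replicate number resembled each other more than libraries that share a genotype (Pearson's r over genes 0.980 and 0.983 within the numbers, 0.897 and 0.893 within KO and WT). The deposited files of the replicate 1 libraries also have 5750 transcript rows that those of the replicate 2 libraries lack. For this reason each KO minus WT difference stands beside its values in the 2 numbers. Hells was at 0.430 and 0.550 RPKM (reads per kilobase and M reads) in KO1 and KO2, against 0.865 and 1.06 RPKM in WT1 and WT2, so its direction followed the labels within both numbers. All 11 fibroblast markers were detected in every library, with a summed level between 2535 and 2841 RPKM, to which Vim gave the largest share. Single markers were less even: all 11 differed between the replicate numbers in limma, 3 higher and 8 lower in replicate 1 (11.9% and 35.8% of all genes tested), with a median log2 difference of -1.33.

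In absolute level the members ranged from 3.33 RPKM (Inhbb in WT2) to 289 RPKM (Inhba in KO1). RPKM is scaled to transcript length, so levels can be set side by side between genes. KO2 and WT2 had the same order of members, from Tgfb3 through Tgfbr2, Tgfb1, Tgfb2, Smad7, Fst, Fstl3 and Inhba to Inhbb. In that order the ranges of KO2 and WT2 overlapped only between the neighbours Tgfb2 (14.6 and 16.4 RPKM) and Smad7 (12.9 and 14.8 RPKM). In KO1 and WT1, Inhba was the highest member and Inhbb again the lowest, but the members in between changed places: Tgfb1 came second in KO1 and Tgfb3 second in WT1. At these depths the lowest value, Inhbb in WT2, stands for about 588 reads per kilobase of transcript.

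**Figure D1:**
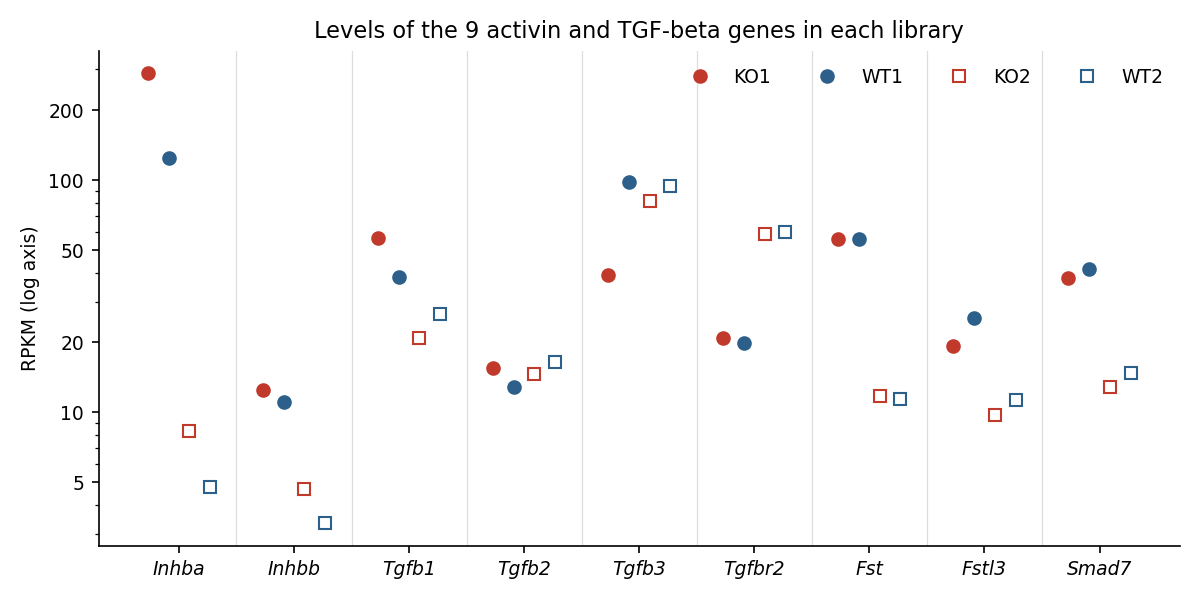
RPKM of each member (log axis) in KO1, WT1, KO2 and WT2. Red marks KO and blue WT, and filled circles mark replicate 1 and open squares replicate 2; Inhba spans from 4.79 to 289 RPKM, and Tgfb2 only from 12.8 to 16.4 RPKM.

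Because Lsh acts on DNA methylation, whose substrate is the CG dinucleotide, the promoters of 3 members are shown: Inhba (higher in KO by the fit with the number), Inhbb (the other beta subunit gene, for comparison) and Tgfbr2 (the member lower in replicate 1). Each is the 250 bases before the RefSeq start on build GRCm38.p6, 5′ to 3′ on the gene's strand, with CG dinucleotides in capitals; Inhba lies at chr13:16011601-16011850 (plus strand), Inhbb at chr1:119422249-119422498 (minus) and Tgfbr2 at chr9:116175364-116175613 (minus).
Inhba: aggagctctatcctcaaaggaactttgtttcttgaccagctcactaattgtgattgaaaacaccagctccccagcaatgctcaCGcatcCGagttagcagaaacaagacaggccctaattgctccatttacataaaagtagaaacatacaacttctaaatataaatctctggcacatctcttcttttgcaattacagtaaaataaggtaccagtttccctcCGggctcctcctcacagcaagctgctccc
Inhbb: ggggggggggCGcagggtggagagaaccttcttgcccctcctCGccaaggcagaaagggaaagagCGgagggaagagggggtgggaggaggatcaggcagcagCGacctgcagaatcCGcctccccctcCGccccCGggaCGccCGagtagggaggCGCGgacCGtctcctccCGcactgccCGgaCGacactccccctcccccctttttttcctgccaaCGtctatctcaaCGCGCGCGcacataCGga
Tgfbr2: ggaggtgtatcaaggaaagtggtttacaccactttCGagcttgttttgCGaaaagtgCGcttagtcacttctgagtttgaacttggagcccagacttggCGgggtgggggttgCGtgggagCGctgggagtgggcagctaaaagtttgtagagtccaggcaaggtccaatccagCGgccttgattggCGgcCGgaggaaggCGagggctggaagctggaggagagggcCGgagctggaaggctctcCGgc

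The Inhba window held 3 CG dinucleotides and 43.2% G and C, whereas the Inhbb window held 21 and 68.0%. The Tgfbr2 window held 12 and 58.4%. Over 32851 RefSeq promoter windows of this length the median was 6 CG dinucleotides, and 29.0% of the windows had fewer than Inhba. Windows were looked up for 6 of the members. Those of Tgfb1, Fstl3 and Tgfb2 held 21, 22 and 8 CG dinucleotides, so Inhba had the fewest of these 6. Fst and Tgfb3 had no entry, and Smad7 was left out of the lookup, so none of them is shown. The letters CAGAC, the core of a SMAD element, were looked for on both strands and occur in 42.2% of all windows. They were in the windows of Tgfbr2 (1 match), Tgfb2 (2) and Fstl3 (2), and not in those of Inhba, Inhbb and Tgfb1. TGANTCA, the AP-1 element, occurs in 6.7% of all windows and in 0 of these 6. A match describes letters and does not show binding, and methylation was not measured here.

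KO was compared with WT to ask which of these transcripts differ when Lsh is missing. Inhba was the 1 member that passed a test, and it did so in 1 of the 2 fits. The gene lies on chromosome 13, 16106308 to 16119045, plus strand (mm9 position). Inhba was at 289 and 8.29 RPKM in KO1 and KO2, against 125 and 4.79 RPKM in WT1 and WT2. The KO level was 2.31 times the WT level for replicate 1 and 1.73 times for replicate 2, while the genotypes overlapped because both replicate 2 libraries lay far below both replicate 1 libraries. On log2(RPKM + 0.5), the scale of every log2 change here, KO exceeded WT by 0.97. With genotype as the only term the SE was 2.32 and limma's adjusted p 1.00. Adding the number to the model gave an SE of 0.18 and an adjusted p of 0.0372, and by that fit Inhba rose in KO. That fit called 0.673% of all genes tested (0.377% higher in KO), and the fit with genotype alone called 0.00% (0 genes, against 0.368% at an unadjusted p below 0.05). The call of Inhba is close to the threshold: the adjusted p ran from 0.00383 to 0.481 over 7 alternatives, 4 of which ended the call, although the log2 change stayed between 0.94 and 1.00. P-values measure the spread between these libraries only. In the second fit that spread is how far the differences within the 2 numbers disagree, pulled by limma towards a variance shared over all genes. The shared part weighed most, with 9.68 prior degrees of freedom (median over genes) beside 1 residual degree. The p of Inhba thus does not rest on the agreement of its own pairs alone.

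In these bulk RNA libraries, fewer cells of a type and less RNA per cell cannot be told apart. Macrophages are a known source of activin A, so their markers are given here. The 13 macrophage and blood markers with rows in all libraries summed to 8.42 and 87.4 RPKM in KO1 and KO2, against 61.5 and 179 RPKM in WT1 and WT2. The sum was lower in KO within each number, but KO2 lay above WT1. None of these 13 was listed at 0 in any library (0 genes), and Ptprc and Emr1 stayed below 1 RPKM in every library. The red cell genes Hba-a1 and Hbb-b1 of the same list had rows for replicate 1 alone and were listed at 0 in KO1 and WT1. Of the 12 markers tested, 5 fell and 0 rose with the number as a term (0.296% and 0.377% of all genes tested). Cell cycle markers summed to 40.3 and 84.3 RPKM in KO1 and KO2, against 75.4 and 103 RPKM in WT1 and WT2. Of the 11 tested, 10 were lower in KO within both numbers (31.4% of all genes tested). The part of these lists in the Inhba difference was not tested.

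Inhbb (chromosome 1, 121312042 to 121318826), the gene of the beta B subunit, was at 12.5 and 4.68 RPKM in KO1 and KO2, against 11.1 and 3.33 RPKM in WT1 and WT2. It was 1.13 and 1.40 times as high in KO within the numbers, the same side as Inhba, and missed the threshold (log2 change 0.30 with an SE of 0.17 and a limma adjusted p of 0.711 in the fit with the number).

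Tgfb3 (chromosome 12, 87397693 to 87419992), 1 of the 3 TGF-beta isoform genes, was the only member whose KO and WT values did not overlap. It was at 39.1 and 81.4 RPKM in KO1 and KO2, against 97.9 and 94.7 RPKM in WT1 and WT2. Among all genes tested, 7.32% had both KO libraries below both WT libraries. The KO level was 0.399 of WT for replicate 1 and 0.859 for replicate 2, so the low value was mainly that of KO1; leaving KO1 out gave a log2 change of -0.24. The log2 change was -0.77 (SE 0.42 with genotype alone, 0.27 with the number as a term). Limma gave an adjusted p of 1.00 and 0.432, and the unadjusted p in the second fit was 0.0264.

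Tgfb1 (chromosome 7, 26472021 to 26490016), the best studied isoform gene, went opposite ways within the numbers. It was at 56.6 RPKM in KO1 against 38.2 RPKM in WT1, and at 21.0 RPKM in KO2 against 26.4 RPKM in WT2. Tgfb2 (chromosome 1, 188447065 to 188529872) did likewise on a smaller scale, with 15.5 against 12.8 RPKM and 14.6 against 16.4 RPKM in the same pairs. The pooled log2 changes were 0.12 for Tgfb1 (SE 0.22) and 0.05 for Tgfb2 (SE 0.17), with limma adjusted p of 0.946 and 0.977 in the fit with the number as a term.

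Tgfbr2 (chromosome 9, 115996813 to 116084482), the receptor that binds TGF-beta first, had close levels in the genotypes within each number. It was at 20.9 and 58.5 RPKM in KO1 and KO2, against 19.9 and 59.6 RPKM in WT1 and WT2. The log2 change was 0.02, with an SE of 0.16 and a limma adjusted p of 0.993 in the fit with the number. Its 2 RefSeq transcripts kept the same split: NM_029575 took 68.7% and 68.9% of the gene's RPKM in KO1 and KO2, against 68.8% and 69.0% in WT1 and WT2.

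Of the inhibitors, Fst (chromosome 13, 115242470 to 115248939), which captures activin outside the cell, had the closest match between genotypes. It was at 55.9 and 11.8 RPKM in KO1 and KO2, against 55.9 and 11.4 RPKM in WT1 and WT2 (log2 change 0.03, SE 0.16 with the number as a term). Fstl3 (chromosome 10, 79240019 to 79245376), a follistatin relative, was at 19.4 and 9.76 RPKM in KO1 and KO2, against 25.5 and 11.3 RPKM in WT1 and WT2. Its rows overlap those of 1 neighbouring gene, Prss57, so without strand information reads of the pair cannot be told apart where they overlap. Smad7 (chromosome 18, 75527019 to 75555589), which blocks the receptors inside the cell, was at 38.0 and 12.9 RPKM in KO1 and KO2, against 41.6 and 14.8 RPKM in WT1 and WT2. Fstl3 (log2 change -0.29) and Smad7 (-0.16) were lower in KO within both numbers and missed the threshold in limma, with adjusted p of 0.686 and 0.884 with the number as a term.

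Counted over the set, 3 members were higher in KO within both numbers (Inhba, Inhbb and Fst), 3 were lower (Tgfb3, Fstl3 and Smad7) and 3 went opposite ways (Tgfb1, Tgfb2 and Tgfbr2). Over all genes tested these shares were 22.5%, 31.4% and 46.1%, so the members' split is near the background. Fst counts as higher only by digits beyond those printed, since KO1 and WT1 were both at 55.9 RPKM. The members' median log2 change was 0.03, against -0.02 over all genes tested. None of the 9 had both KO libraries above both WT libraries (0 members, background 6.10%).

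**Figure D2:**
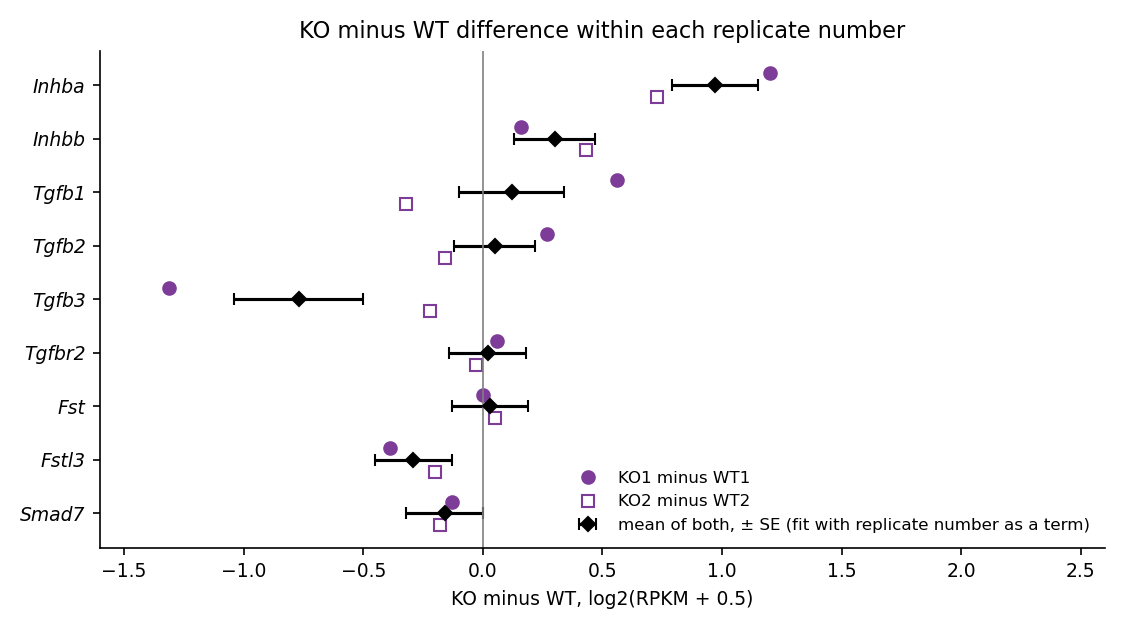
KO minus WT difference of log2(RPKM + 0.5) for each member, for KO1 minus WT1 (filled circles), KO2 minus WT2 (open squares) and their mean with the SE of the fit with replicate number as a term (diamonds). Inhba lies at 1.20 and 0.73, Tgfb3 at -1.31 and -0.22, and Tgfb1 at 0.56 and -0.32.

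Relative amounts within a library show how the ligands were made up. Inhba made up 95.9% and 63.9% of the summed Inhba and Inhbb RPKM in KO1 and KO2, against 91.9% and 59.0% in WT1 and WT2. Relative to its inhibitor, Inhba was at 5.16 and 0.701 times the Fst level in KO1 and KO2, against 2.24 and 0.420 times in WT1 and WT2. The activin A gene thus exceeded the follistatin gene in both replicate 1 libraries and stayed below it in both replicate 2 libraries, with KO above WT in each pair. These are ratios of transcripts, and protein was not measured.

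The 3 TGF-beta isoform genes summed to 111 and 117 RPKM in KO1 and KO2, against 149 and 137 RPKM in WT1 and WT2. Tgfb3 took 35.1% and 69.6% of that sum in KO1 and KO2, against 65.7% and 68.9% in WT1 and WT2. Tgfb1 took 50.9% and 17.9% in KO1 and KO2, against 25.6% and 19.2% in WT1 and WT2. KO1 was the library that stood apart: Tgfb1 was its leading isoform gene, whereas Tgfb3 led in KO2, WT1 and WT2. The shares have 1 value per library, and no test was made on them.

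**Figure D3:**
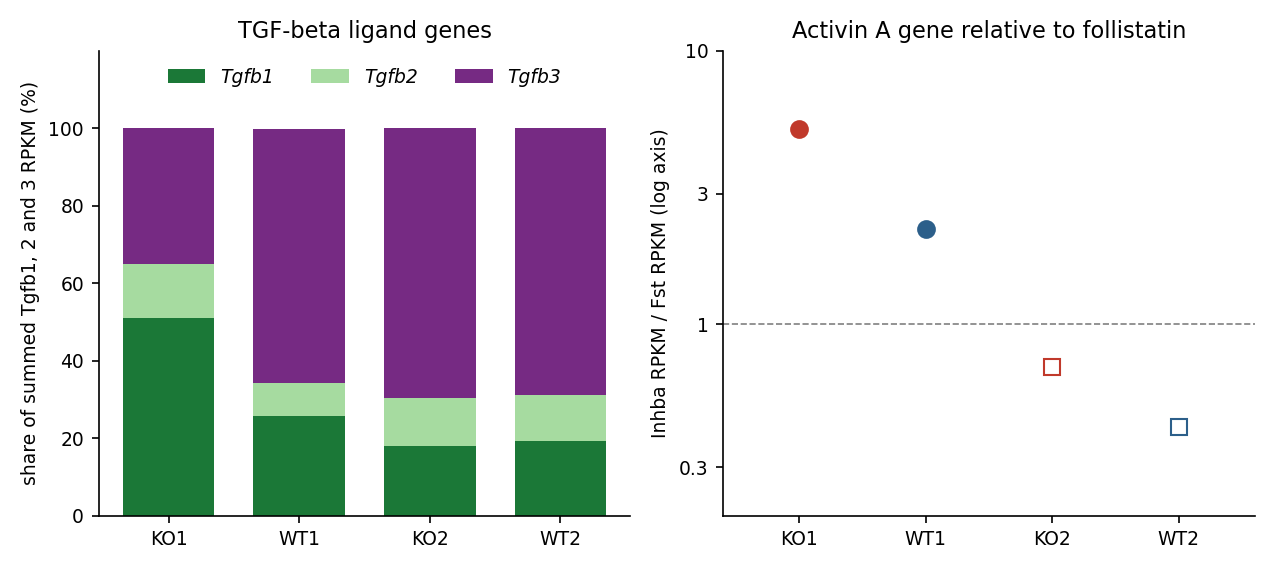
Left, share (%) of Tgfb1, Tgfb2 and Tgfb3 in their summed RPKM in KO1, WT1, KO2 and WT2; right, ratio of Inhba to Fst RPKM (log axis, dashed line at equal levels). Tgfb3 takes 35.1% in KO1 and between 65.7% and 69.6% in the other libraries, and the ratio is 5.16 in KO1, 2.24 in WT1, 0.701 in KO2 and 0.420 in WT2.

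For 7 of the 9 members the difference between the replicate numbers passed the test; Tgfb2 and Tgfb3 were the exceptions. In the limma fit with genotype and number as terms, 47.7% of all genes tested differed between the numbers, 11.9% higher and 35.8% lower in replicate 1. Of the members, 6 were higher (Inhba, Inhbb, Tgfb1, Fst, Fstl3 and Smad7), 1 was lower (Tgfbr2), and Tgfb2 and Tgfb3 missed the threshold. Both replicate 1 libraries lay above both replicate 2 libraries for the same 6 genes, against 21.2% of all genes, and below them for Tgfbr2, against 53.3% of all genes. The members' median was 1.05, against -0.25 over all genes tested. The members' differences are thus to be read relative to a shift of -0.25 in all genes, which scaling by median-ratio size factors removes.

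Inhba had the largest difference of the set: KO1 was 34.8 times KO2 and WT1 was 26.1 times WT2 (log2 difference 4.80, SE 0.18, limma adjusted p 4.17e-08). Fst followed, with KO1 at 4.73 times KO2 and WT1 at 4.90 times WT2 (log2 difference 2.22, SE 0.16, limma adjusted p 3.04e-06). An activin subunit gene and the gene of its inhibitor thus lay on the same side. Smad7 (log2 difference 1.49), Inhbb (1.46), Fstl3 (1.05) and Tgfb1 (0.97) were also higher in replicate 1, with limma adjusted p between 4.58e-05 and 0.0072. In fits on 3 libraries without the genotype term, Tgfb1 lost its call without KO2 (limma adjusted p 0.113) and without WT2 (0.0649).

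Tgfbr2 went the other way, with KO1 at 0.357 of KO2 and WT1 at 0.334 of WT2 (log2 difference -1.51, SE 0.16, limma adjusted p 4.53e-05). The receptor gene was thus lower in the libraries in which 6 of the ligand and inhibitor genes were higher. Tgfb2 (log2 difference -0.13, SE 0.17) and Tgfb3 (-0.50, SE 0.27) had limma adjusted p of 0.571 and 0.171. Tgfb2 changed sign with median-ratio scaling (0.15), and, in the fits on 3 libraries, Tgfb3 without KO1 (0.16), whereas without WT1 Tgfb3 was lower in replicate 1 (-1.16, limma adjusted p 4.19e-05).

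Several marker lists moved between the numbers too. Among the fibroblast markers, Lum, a matrix proteoglycan, was at 1.27 and 0.718 RPKM in KO1 and WT1, against 105 and 108 RPKM in KO2 and WT2. Dcn, another, was at 13.9 and 3.88 RPKM in KO1 and WT1, against 129 and 121 RPKM in KO2 and WT2; both were chosen after their values were seen. Macrophage and blood markers summed to 8.42 and 61.5 RPKM in KO1 and WT1, against 87.4 and 179 RPKM in KO2 and WT2. Smooth muscle markers, which serum-grown fibroblasts also express, summed to 1555 and 2061 RPKM in KO1 and WT1, against 715 and 830.3 RPKM in KO2 and WT2. Cell cycle markers summed to 40.3 and 75.4 RPKM in KO1 and WT1, against 84.3 and 103 RPKM in KO2 and WT2. The processing also differed by number, and the part of any of these in the members' differences was not tested; culture, cell makeup and processing cannot be told apart.

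The rest of the pathway gave few calls between genotypes. None of the 5 other ligands tested, 7 other receptors, 13 SMADs and intracellular regulators, 11 genes of latent TGF-beta storage and activation or 27 TGF-beta induced genes passed in either limma fit (0 genes in each list, against 0.673% of all genes in the fit with the number as a term). At an unadjusted p below 0.05 in that fit the counts were 2, 3, 2, 1 and 8, against 9.10% of all genes. Inhbe and Nodal, 2 other ligands of the family, had rows for replicate 1 alone and were listed at 0 in KO1 and WT1, and Mstn, Gdf3, Inhbc and Lefty2 were too low to be tested.

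Among the other ligands, Gdf15, a stress-induced member of the superfamily, came nearest to the threshold. It was at 1.16 and 2.31 RPKM in KO1 and KO2, against 4.12 and 4.14 RPKM in WT1 and WT2 (log2 change -1.10 with an SE of 0.21 and a limma adjusted p of 0.0539 in the fit with the number). Inha, the alpha subunit that turns beta subunits into inhibins, was at 0.737 and 2.87 RPKM in KO1 and KO2, against 0.864 and 4.59 RPKM in WT1 and WT2. Gdf11, a relative of myostatin, was at 5.36 and 5.04 RPKM in KO1 and KO2, against 3.17 and 4.08 RPKM in WT1 and WT2.

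Of the receptors, Eng, a TGF-beta co-receptor, was at 2.18 and 3.24 RPKM in KO1 and KO2, against 3.94 and 5.80 RPKM in WT1 and WT2, with a limma adjusted p of 0.101. Acvrl1, a receptor that pairs with it, was at 3.08 and 3.84 RPKM in KO1 and KO2, against 1.54 and 2.94 RPKM in WT1 and WT2. Tgfbr3, or betaglycan, was at 2.04 and 11.0 RPKM in KO1 and KO2, against 1.15 and 9.31 RPKM in WT1 and WT2. Both of these missed the threshold (limma adjusted p 0.311 and 0.505 with the number as a term).

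Inside the cell, Smad6, an inhibitor of the BMP branch and a relative of Smad7, was at 2.94 and 7.55 RPKM in KO1 and KO2, against 5.79 and 11.2 RPKM in WT1 and WT2 (limma adjusted p 0.127). Bambi, a decoy receptor, was at 1.53 and 3.06 RPKM in KO1 and KO2, against 2.89 and 3.53 RPKM in WT1 and WT2. Pmepa1, an inhibitor that TGF-beta itself induces, was at 79.0 and 75.6 RPKM in KO1 and KO2, against 111 and 80.2 RPKM in WT1 and WT2. In the matrix, Thbs1, an activator of latent TGF-beta, was at 1339 and 524 RPKM in KO1 and KO2, against 1069 and 383 RPKM in WT1 and WT2. Ltbp1, which tethers the latent form, was at 42.6 and 24.6 RPKM in KO1 and KO2, against 56.5 and 30.5 RPKM in WT1 and WT2, and Fbn2, a fibrillin, at 4.14 and 46.7 RPKM against 5.63 and 47.5 RPKM in the same libraries.

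TGF-beta induced genes had a median log2 change of -0.14, against -0.02 over all genes tested. In both numbers, 7 of the 27 tested had KO above WT and 13 had KO below WT (22.5% and 31.4% of all genes tested). Cnn1, a calponin of contractile cells, was at 58.1 and 16.2 RPKM in KO1 and KO2, against 145 and 23.9 RPKM in WT1 and WT2 (limma adjusted p 0.0928 with the number as a term). Timp3, a protease inhibitor, was at 521 and 179.8 RPKM in KO1 and KO2, against 327 and 144 RPKM in WT1 and WT2. Nox4, an oxidase, was at 4.36 and 4.83 RPKM in KO1 and KO2, against 3.50 and 2.53 RPKM in WT1 and WT2. Acta2, Tagln and Cnn1 of this list are smooth muscle markers as well.

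**Figure D4:**
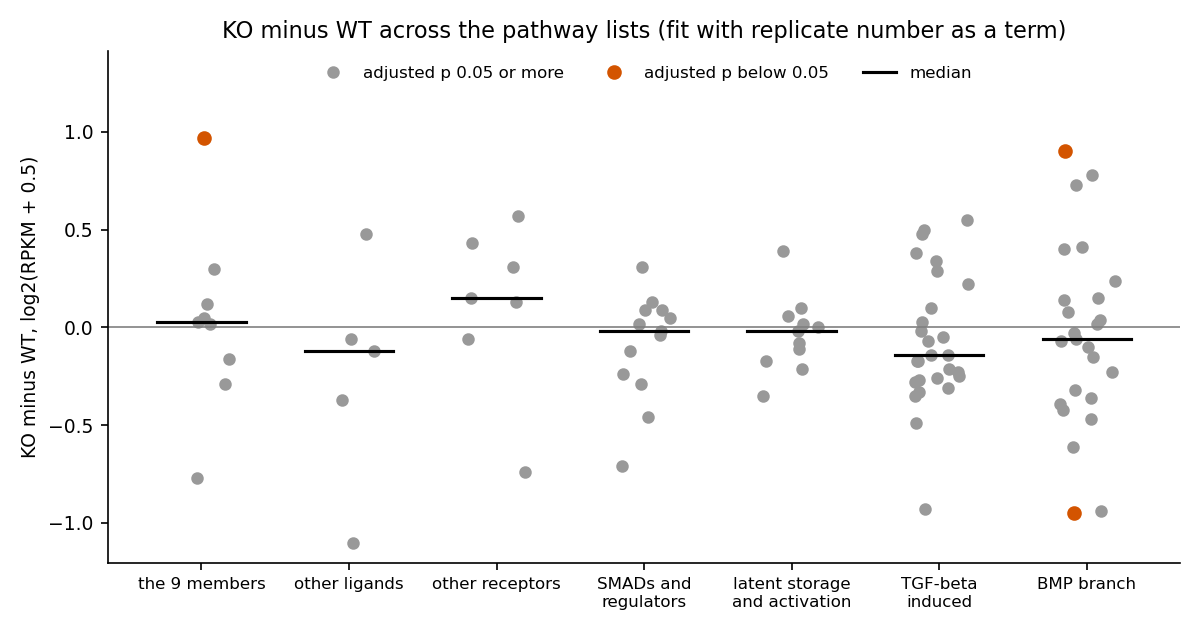
KO minus WT log2 change (fit with replicate number as a term) of each tested gene, for the 9 members and 6 lists of the pathway; orange points have an adjusted p below 0.05 and bars are medians. Among the orange points are Inhba (0.97) and Smoc1 (-0.95).

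In the related BMP branch, 25 genes were tested, and 1 fell (0.296% of all genes). Smoc1, a secreted matrix protein that modulates BMP signalling, was at 4.59 and 2.23 RPKM in KO1 and KO2, against 8.37 and 5.39 RPKM in WT1 and WT2, and fell (log2 change -0.95, SE 0.18, limma adjusted p 0.0365 in the fit with the number). Its call ended under 4 of 7 alternatives, as that of Inhba did. Bmp4, a ligand, was at 1.15 and 27.8 RPKM in KO1 and KO2, against 5.10 and 30.0 RPKM in WT1 and WT2, and missed the threshold (limma adjusted p 0.777).

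The same lists were compared between the replicate numbers. Of the TGF-beta induced genes 15 were higher and 7 lower in replicate 1, against 11.9% and 35.8% of all genes tested. Their median log2 difference was 0.60, against -0.25 over all genes tested. None of the 5 other ligands and 7 other receptors was higher (0 in each), and 3 and 5 of them were lower, as was Tgfbr2, beside 35.8% of all genes tested. Ctgf, a known target of TGF-beta, was at 951 and 1096 RPKM in KO1 and WT1, against 182 and 151 RPKM in KO2 and WT2. The matrix genes Col3a1 and Tgfbi of the same list went the other way: Tgfbi was at 2.54 and 2.36 RPKM in KO1 and WT1, against 20.7 and 24.2 RPKM in KO2 and WT2. These 3 genes were chosen after their values were seen.

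**Figure D5:**
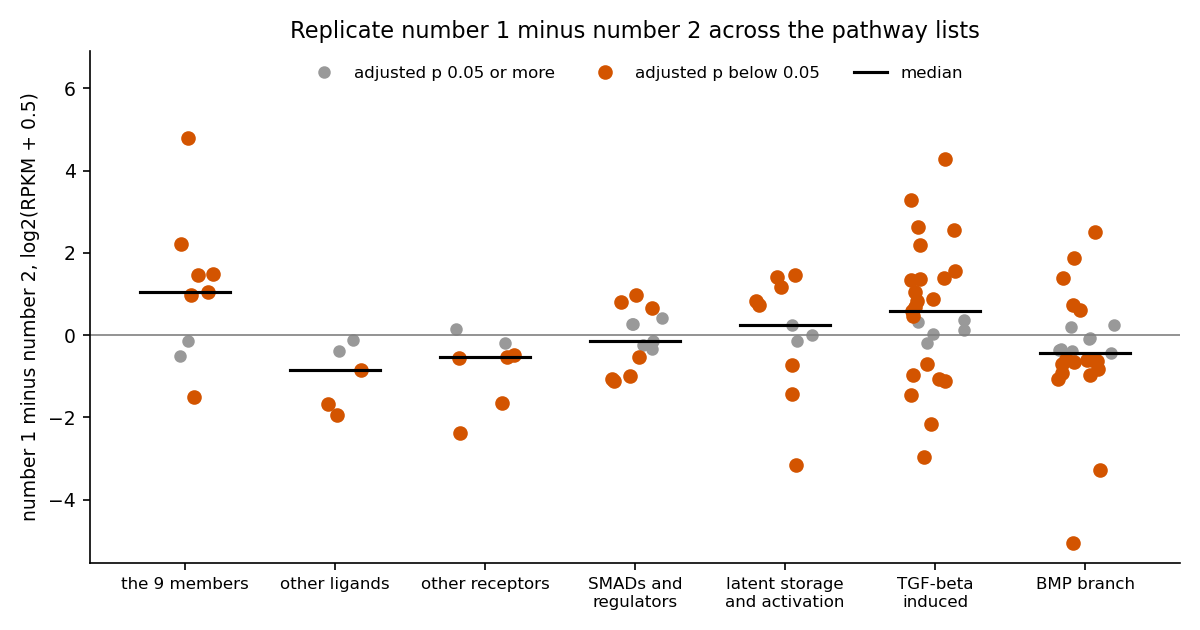
Replicate number 1 minus number 2 difference of log2(RPKM + 0.5) for each tested gene of the same sets, with genotype as a second term; orange points have an adjusted p below 0.05 and bars are medians. The members' median is 1.05 and that of the TGF-beta induced genes 0.60, while that of the other receptors is -0.52.

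Inhba and Fst were the members whose log2 level ranged over more than 2 across the libraries, and the genes most like them were looked up by the Euclidean distance between centred log2 profiles over 4 libraries. Nearest to Inhba were Sprr2k (0.68), a gene of the small proline-rich family with close copies and therefore uncertain, Il11 (0.74), a cytokine gene, and Ereg (0.79), a growth factor gene of the EGF family. The median distance over all genes tested was 5.17. Il11 was at 31.5 and 0.775 RPKM in KO1 and KO2, against 21.2 and 0.685 RPKM in WT1 and WT2. Near to Fst were Pcolce2 (0.11) and Kctd11 (0.16), with a median of 2.49 over all genes. With 4 libraries, such a distance mostly reflects the difference between the numbers.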

How the data were processed

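RNA was sequenced from 4 libraries of the 22 samples the labels describe; the other 18 (input, RNA polymerase II, H3K27me3 and H3K4me3) are not analysed here. Per the labels' protocols, RNA was depleted of ribosomal RNA, selected for poly-A and read on an Illumina Genome Analyzer IIx. RPKM values as deposited were computed by the authors per RefSeq transcript; the deposited readme names Cufflinks, and the submitters' processing notes name mm9 and Partek. For the aligner and for reads with several matches, the sources used here give nothing. Transcript rows were summed per symbol over the 21136 rows in all libraries. The test took genes that reached 0.5 RPKM in 2 or more libraries, on log2(RPKM + 0.5), with limma 3.58.1 (R 4.3.3; trend, robust, two-sided), with Benjamini-Hochberg adjustment over all genes and a threshold of 0.05. The fits had genotype alone, genotype with replicate number, and number with genotype. Mapped reads were estimated from whole steps (within 0.02 of a read) of RPKM times length at 16 to 33 olfactory receptor loci per library. At least 95.0% of these loci were whole. The depth was searched for to make that share high, so the share does not check the estimate. The scripts were tested on simulated data, where the fit with genotype alone recovered none of the changed genes, so its lack of calls does not show a lack of differences. The fit with the number recovered nearly all of them and also called some unchanged genes, so single calls from it, that of Inhba included, may be false.

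Alternatives were pseudocounts of 0.1 and 1, no filter, a filter of 1 RPKM, the highest transcript row per gene, median-ratio scaling, quantile normalization and each library left out. Named were all members, pathway genes past the threshold in a KO minus WT fit and, per list, the 3 largest changes on the same side within both numbers. A few genes that this rule names are not reported here. The members and lists were chosen with earlier results of these data known. Promoter sequences are from RefSeq (GRCm38.p6).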

Additional observations from a re-analysis of the deposited data

Results flagged for a closer look

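In this set 3 members went opposite ways in KO within the replicate numbers, on log2(RPKM + 0.5). Tgfb1 differed by 0.56 for KO1 minus WT1 and by -0.32 for KO2 minus WT2. Tgfb2 differed by 0.27 and -0.16, and Tgfbr2 by 0.06 and -0.03, in the same pairs. Each number holds 1 library per genotype, so the difference between the numbers was not tested. Of all genes tested, 46.1% went opposite ways in this manner.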

How the results depend on the processing

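The replicate block (the replicate number as a term) called 75 genes between KO and WT, against 0 without it and 0 under each other setting tried for that fit; leaving out a library also gave 0 (0 to 0). No label states that equal numbers mark paired samples, and the 2 pairs are too few to show it; deviations of same-numbered libraries correlated at 0.875 across genes. With the block, the count was 37 with a pseudocount of 0.1, 0 with no filter, 3 with the highest transcript row and 187 with quantile normalization. The call of Inhba ended with pseudocounts of 0.1 and 1 (adjusted p 0.0685 and 0.0717), no filter (0.481) and the highest transcript row (0.188), and held with a filter of 1 RPKM, median-ratio scaling and quantile normalization. No fit with the block can leave out a library, since 0 residual degrees of freedom remain. Without the block, leaving out each library gave KO minus WT log2 changes from -1.55 to 3.49 for Inhba, -0.50 to 1.10 for Inhbb, -0.58 to 0.82 for Tgfb1, -0.12 to 0.22 for Tgfb2, -1.29 to -0.24 for Tgfb3, -0.76 to 0.80 for Tgfbr2, -1.10 to 1.15 for Fst, -0.87 to 0.28 for Fstl3 and -0.92 to 0.60 for Smad7; the difference between the numbers enters these fits. Between the numbers, 5323 genes differed with all libraries and genotype as a term. Leaving out each library also took out the genotype term, since no residual degrees of freedom would remain with it, so both changed at once; 2088 to 4509 genes then differed, the lowest without WT2 and 2705 without KO2. There, Tgfb2 ran from -0.26 to 0.00 and Tgfb3 from -1.16 to 0.16 with each library left out, and Tgfb2 was 0.15 with median-ratio scaling. Depth was estimated at 122.3 M (mega) reads or more, and by that estimate each member had at least 588 reads per kilobase in every library.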

Other observations

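Markers of other cell types, listed by type, were summed in each library. The 10 epithelial markers summed to 8.11 and 6.35 RPKM in KO1 and KO2, against 18.7 and 19.1 RPKM in WT1 and WT2, and 2 of the 4 tested fell with the number as a term in limma (0.296% of all genes tested). The 7 endothelial markers summed to 0.642 and 2.38 RPKM in KO1 and KO2, against 1.79 and 1.97 RPKM in WT1 and WT2. The 6 neuronal markers with rows summed to 4.91 and 1.90 RPKM in KO1 and KO2, against 12.9 and 1.64 RPKM in WT1 and WT2. Most of that sum was Stmn2, at 4.70 and 1.22 RPKM in KO1 and KO2, against 12.7 and 0.973 RPKM in WT1 and WT2. The other 5 stayed below 1 RPKM in every library. The 6 cartilage markers summed to 19.7 and 8.85 RPKM in KO1 and KO2, against 13.8 and 14.2 RPKM in WT1 and WT2. Sox9 was the largest part, at 18.9 and 4.90 RPKM in KO1 and KO2, against 9.63 and 7.28 RPKM in WT1 and WT2. Of the 4 cartilage markers tested 1, Col2a1, fell with the number as a term in limma (0.296% of all genes tested). The 6 adipocyte markers summed to 5.48 and 27.4 RPKM in KO1 and KO2, against 5.48 and 23.2 RPKM in WT1 and WT2. Of 11 cell cycle markers tested 0 passed the limma threshold with the number as a term (0.673% of all genes tested). In that fit 9 had an unadjusted p below 0.05 (9.10% of all genes tested). Within both numbers, 10 were lower in KO (31.4% of all genes tested).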
